A study of Homo sapiens with 2 samples.

Results

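Long-chain acyl-CoA synthetases are the enzymes that join a long-chain fatty acid to coenzyme A, and the human genome holds 5 genes for them: ACSL1, ACSL3, ACSL4, ACSL5 and ACSL6. All 5 were taken by symbol from the 36953 genes of the gene tables, together with their exon regions, exon junctions, exon-intron boundaries and transcripts. The family was singled out with its gene ratios and the first exon of ACSL5 already known from these libraries, so the values below describe it and carry no test.

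The study profiled polyadenylated RNA of a drug-sensitive and a drug-resistant colorectal cancer cell line to try out a method for finding alternative expression. MIP101 is a colorectal cancer line derived from a liver metastasis and is sensitive to 5-fluorouracil (5-FU), a pyrimidine analogue used against this cancer. MIP/5FU is 1 resistant clone selected from MIP101 by passage in rising 5-FU, with an IC50 for the drug 10-fold above that of its parent, and its stock cultures were kept in 5 µM 5-FU. Both cultures were grown for about 48 h without drug or antibiotics before RNA was isolated, so neither library was made from cells under acute drug exposure. Each line gave 1 library. Selection by the drug, descent from 1 cell and differences between single cultures cannot be told apart, and every interval below covers counting error only.

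An acyl-CoA synthetase consumes ATP to turn a free fatty acid into its acyl-CoA, the form in which the fatty acid can be oxidised, stored in triglyceride or built into phospholipid. The family members differ in location and in the fatty acids they prefer. ACSL1 is tied to triglyceride storage and oxidation in liver, fat and muscle, ACSL3 sits on the endoplasmic reticulum and on nascent lipid droplets, and ACSL4 prefers arachidonate and other long polyunsaturated fatty acids. ACSL5 is abundant in the absorptive epithelium of the intestine and is found on mitochondria and endoplasmic reticulum, and ACSL6 is best known from brain. ACSL4 also supplies the polyunsaturated acyl-CoA whose phospholipids are oxidised in ferroptosis, an iron-dependent form of cell death.

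The sequences on which the results turn lie at the 5′ ends of ACSL5 and ACSL4. Exon 3 of ACSL5, a first exon in the annotation, was read in MIP101 and listed at 0 in MIP/5FU. It holds 139 coding bases that transcripts starting at exon 1 or exon 2 lack. The run below gives those coding bases in lower case, from their start codon, followed in capitals by the first bases of exon 4 up to and including the second start codon, at which translation begins in the transcripts without exon 3. It was taken from the GENCODE 29 transcript whose 21 exons all had the same lengths as the files' exons 3 to 23. The 168 bases ahead of the second start codon make 56 codons, in frame.
ACSL5 exon 3 coding bases joined to exon 4: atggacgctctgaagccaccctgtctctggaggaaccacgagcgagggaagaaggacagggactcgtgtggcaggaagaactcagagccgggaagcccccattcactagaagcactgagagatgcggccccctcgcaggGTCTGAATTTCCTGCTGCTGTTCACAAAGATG
The next run is the stretch just upstream of ACSL5 exon 3, 243 bases at chr10:112375955-112376197 on the plus strand of GRCh38.p14 (RefSeq). The capitals mark a match to TGACNNNGC, the core of the antioxidant response element, on the reverse strand.
ACSL5 upstream of exon 3: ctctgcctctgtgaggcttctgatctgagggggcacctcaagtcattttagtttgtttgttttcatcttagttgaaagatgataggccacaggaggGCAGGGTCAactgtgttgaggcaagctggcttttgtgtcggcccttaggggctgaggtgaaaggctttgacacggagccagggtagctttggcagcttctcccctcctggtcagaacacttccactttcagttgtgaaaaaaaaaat
For ACSL4 the window is cut at the furthest annotated start, which leaves 104 bases at chrX:109733404-109733507 on the minus strand of the same build. Its capitals mark a TGACG, the short cAMP response element, and a GC box, GGGCGG.
ACSL4 upstream of exon 1: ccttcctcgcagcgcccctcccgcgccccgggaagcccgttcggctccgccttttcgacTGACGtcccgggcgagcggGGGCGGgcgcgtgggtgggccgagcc

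The upstream stretches differed in base composition. ACSL4 held 17 CpG in its 104 bases, more than 97.4% of the 35116 RefSeq promoter windows cut to the same length, whose median was 3. Each window was cut to its leading bases, the end furthest upstream of its RefSeq start, and not at its own furthest annotated start. The ACSL4 stretch ends at such a start, so the windows are not matched to it in distance from a start, and the shares below are a rough background. ACSL5 held 2 CpG in 243 bases, where the median window held 10, and 15.2% of windows held fewer. Both strands were searched for 8 motifs. They were the GC box GGGCGG, the CCAAT box, the TATA box TATAAA, the E-box CACGTG, the full cAMP response element TGACGTCA with its short form TGACG inside it, the antioxidant element core TGACNNNGC, and the nuclear receptor direct repeat 1. GGGCGG occurred in 17.9% and TGACG in 7.38% of windows cut as for ACSL4, and TGACNNNGC in 10.6% of windows cut as for ACSL5. A match describes the letters only, and none of the other motifs was in these windows.

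ACSL4 (ENSG00000068366, chrX:108771222-108863277, minus strand, hg18) was the member that differed most between the lines. The MIP101 library held 1986 of its reads and the MIP/5FU library 7963, although the first library was the deeper one, with 200141071 gene reads against 109693681. As a share of gene reads this was 9.92 RPM (reads scaled to the same total) in MIP101 and 72.6 in MIP/5FU, a log2 ratio of 2.87 (95% counting interval 2.80 to 2.94), or 7.31-fold (6.96 to 7.69). A gene was counted as higher or lower when it had at least 100 reads summed over the libraries, differed by at least 2-fold and its interval did not include 0. By that rule ACSL4 was the 1 member of 5 counted higher, where 2.53% of the 15382 genes tested were counted higher. That contrast helped to choose the family, so the share is given as background only. Ranked by ratio from the top among protein-coding genes of 500 or more summed reads, ACSL4 was number 9. In bulk RNA, more cells that express a gene and more RNA per cell cannot be told apart.

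ACSL5 (ENSG00000197142, chr10:114123906-114178127, plus strand) went the other way without reaching 2-fold. Its reads numbered 4944 (MIP101) and 1724 (MIP/5FU), that is 24.7 and 15.7 RPM, a log2 ratio of -0.65 (-0.73 to -0.57). Its level in MIP/5FU was thus 1.57-fold lower (1.49 to 1.66), and no member was counted lower, against 3.09% of all genes tested. ACSL3 (ENSG00000123983, chr2:223433976-223516360, plus strand) had 34999 and 17068 reads and a log2 ratio of -0.17 (-0.19 to -0.14). ACSL1 (ENSG00000151726, chr4:185913744-185984209, minus strand) had 12830 and 6725 reads and a log2 ratio of -0.06 (-0.11 to -0.02). Both were among the 83.2% of tested genes that lay within 1.5-fold of no difference, around a median log2 ratio of 0.03.

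ACSL6 (ENSG00000164398, chr5:131311207-131375678, minus strand) was barely read. Its reads numbered 290 (MIP101) and 201 (MIP/5FU), with a log2 ratio of 0.34 (0.07 to 0.60), and the authors' deposited table marks it as not expressed in either library. Region 27e, 2294 bases past the coding sequence of which 578 are masked as repeats, took 97.3% of its coverage in MIP101 and 89.7% in MIP/5FU. All its other regions together held coverage worth 7.07 and 19.2 reads. Of 35 exon regions 15 were at 0 in both libraries, and no transcript-specific feature of ACSL6 had a read. The gene ratio of ACSL6 therefore describes mostly region 27e, whose own log2 ratio was 0.24. Of the bases of that region 23.5% were covered in MIP101 and 25.7% in MIP/5FU. Whether these reads arose from ACSL6 was not tested.

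**Figure D1:**
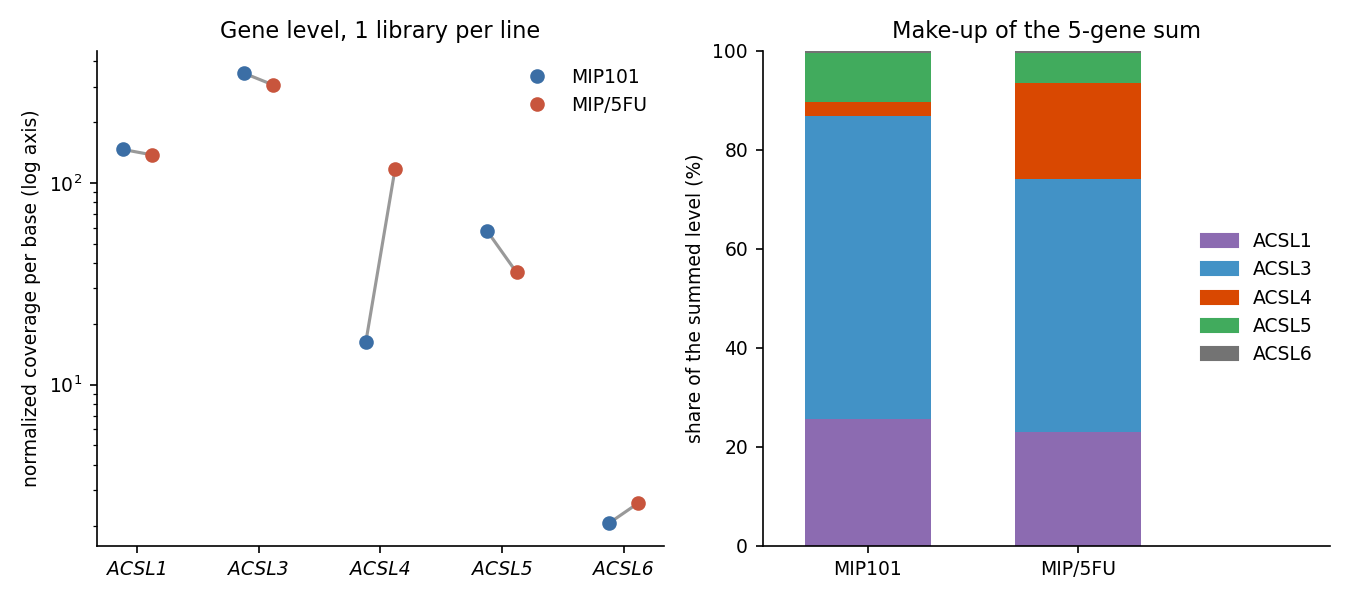
Left, the level of each of the 5 genes in MIP101 and MIP/5FU as normalized coverage per base on a log axis, 1 point per library. Right, the share of each gene in the summed level of the 5. ACSL4 went from 16.2 to 116.7 and from 2.83% to 19.5% of the sum, while the other genes kept their order.

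Set per base, which allows genes of different lengths to be compared, the family was led by ACSL3 in both lines. The authors' normalized coverage per base put ACSL3 at 349.7 in MIP101 and 305.6 in MIP/5FU, ACSL1 at 146.6 and 137.8, and ACSL5 at 57.5 and 36.0. ACSL4 stood at 16.2 and 116.7, and ACSL6 at 2.05 and 2.58. ACSL5 and ACSL4 thus changed places as the third and the fourth gene: ACSL5 was 3.55-fold above ACSL4 in MIP101, and ACSL4 was 3.24-fold above ACSL5 in MIP/5FU. The order did not rest on neighbouring values within counting error, since the 95% Poisson intervals of RPKM (reads scaled by gene length and depth) did not overlap between any members within a library. In MIP/5FU the closest neighbours were ACSL1 at 16.1 (15.7 to 16.5) and ACSL4 at 13.6 (13.3 to 13.9).

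The summed level of the family was 572.1 in MIP101 and 598.6 in MIP/5FU. ACSL4 made up 2.83% of that sum in MIP101 and 19.5% in MIP/5FU. ACSL3 went from 61.1% to 51.0%, ACSL1 from 25.6% to 23.0% and ACSL5 from 10.1% to 6.01%. Summed over the 5 genes, reads had a log2 ratio of 0.16 (0.14 to 0.18), so the family's total differed far less between the lines than its make-up. Among protein-coding genes ACSL4 stood at the 50.2 percentile of level in MIP101 and at the 74.4 percentile in MIP/5FU. ACSL3 stood at the 90.7 and 89.5 percentile.

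The genes nearest to ACSL4 in ratio within that same class lay on other chromosomes. IGF2BP3, an RNA-binding protein of fetal tissue and tumours, had 320 and 1402 reads in MIP101 and MIP/5FU, and a log2 ratio of 3.00. VAV3 had 121 and 593 reads and a log2 ratio of 3.16. Just below ACSL4 were KRT20, an intestinal keratin, with 572 and 2124 reads and 2.76, and FBLN7, an extracellular matrix protein, with 129 and 456 reads and 2.69. Likeness here means a near value of 1 ratio between 2 libraries.

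The difference in ACSL4 ran along the whole gene. All 15 exon regions with at least 50 read equivalents (coverage divided by the mean bases per read) were higher in MIP/5FU, with log2 ratios from 2.51 to 3.39, and their counting intervals, taken at the error rate of 0.001 used for all features, lay above 2-fold in every case. The level per base went from a median of 21.7 over its 14 fully coding regions in MIP101 to 140.1 in MIP/5FU, and all 14 were higher in MIP/5FU. Reads on the canonical junctions of ACSL4, which come only from spliced RNA, numbered 163 and 695. Scaled by the total of canonical junction reads, as all junction sums here are, that is a log2 ratio of 3.03 (2.78 to 3.28), and as a share of gene reads 2.96 (2.71 to 3.21). Both intervals included the ratio of the gene. The last exon, region 17a, gave 1017 and 4376 read equivalents and a log2 ratio of 2.97.

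The first exons of ACSL4 were thinly covered, and most of them were higher in MIP/5FU with the gene. Region 1b of exon 1 stood at 7.47 in MIP101 and 58.7 in MIP/5FU per base, a log2 ratio of 2.98 for reads. Region 1a, the outermost part of that exon, stood at 0.361 and 3.07, and exon 2 at 1.60 and 14.6. Exon 3 was at 0 in both. Region 4b carries 111 coding bases that transcripts splicing to 4c or 4d leave out, and stood at 4.18 and 22.2 per base. Relative to region 4d, which all annotated transcripts share, region 4b was at 20.5% and 19.4%. Region 4a, an alternative 5′ part of exon 4 with 1 coding base, went less far up, from 3.62 to 9.79 per base and from 17.8% to 8.56% of region 4d. With 15.1 and 22.8 read equivalents it had too few to be tested, and the interval of its index included 0.

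Few junction reads led from exons 1, 2 and 3 into exon 4 of ACSL4: MIP101 had 3 and MIP/5FU 19. The exon 2 to 4c junction, which leaves out region 4b, had 2 of the 3 (95% Clopper-Pearson interval 9.43% to 99.2%) and 8 of the 19 (20.3% to 66.5%). Direct splicing from exon 1 to 4c had 1 and 6 reads, exon 1 to 4a had 0 and 2, exon 1 to 4d had 0 and 1, and exon 2 to 4d had 0 and 2. Exon 1 to exon 2 had 1 and 5 reads. The exon 3 to 4a and exon 2 to 3 junctions had no read in either library. A shift between these routes could not be detected at this depth.

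A single junction of ACSL4 ran against the gene. It joins exon 10 to exon 12, leaves out exon 11, a coding exon of 140 bases, and has no supporting transcript, mRNA or EST in the files. MIP101 gave it 5 reads and MIP/5FU 0, although the gene was higher there. Set over itself plus the mean of the inclusion junctions, skipping was 37.0% of 13.5 reads for MIP101 (13.3% to 66.6%). In MIP/5FU it was 0 of 53.5 reads, which allows a share of up to 5.61% by a floor of 3 reads (Clopper-Pearson upper limit 6.66%). Each total holds a mean of junction counts, so these limits are approximate. The exon 10 to 11 junction had 4 and 45 reads, an index of 1.33 whose 0.001 interval included 0. The other inclusion junction, exon 11 to 12, had 13 and 62 reads and an index of 0.21, whose interval also included 0. In MIP101 the inclusion junctions thus had unlike counts, which the mean behind the 37.0% does not show. Exon 11 itself had the highest log2 ratio of the gene's regions, 3.39, but the interval of its index of 0.51 (-0.22 to 1.38) included 0. The exon 10 to 12 junction was picked after its values were seen, had too few reads to be tested by the rule below, and rests on 5 reads.

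**Figure D2:**
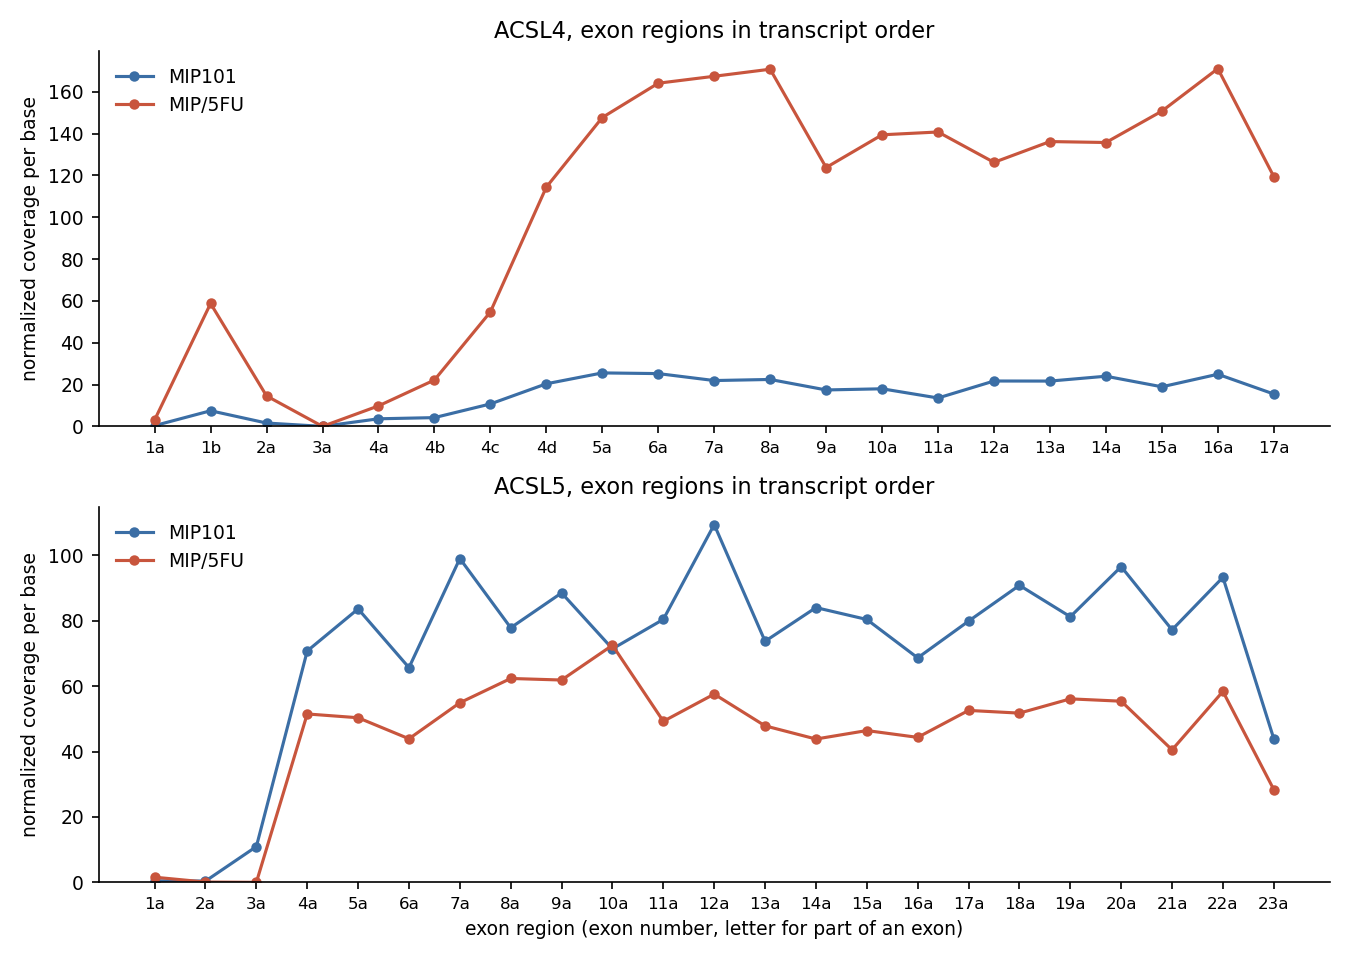
Normalized coverage per base of every exon region of ACSL4 (top) and ACSL5 (bottom) in transcript order, 1 line per library. ACSL4 is higher in MIP/5FU in all regions but the empty 3a, and exon 3 of ACSL5 stands at 10.9 in MIP101 and at 0 in MIP/5FU.

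To find parts of a gene that differ from the gene as a whole, the log2 ratio of the gene was subtracted from that of each feature. This index was counted where it was at least 1 in size and its 0.001 interval, with the gene ratio held fixed, did not include 0. Exon regions and transcripts needed at least 50 read equivalents, junctions and boundaries at least 20 reads, and the gene at least 200 reads. Of the family's 117 exon regions 75 could be tested, and 1 was counted lower and 0 higher. Over all genes 0.111% of exon regions were counted lower and 0.164% higher. Of 70 junctions tested, none was counted, against 0.0997% of all junctions tested lower and 0.0559% higher. The 1 boundary tested, at exon 10 of ACSL1, had 14 and 11 reads and was not counted (background 0.122% lower and 0.741% higher). The 3 transcripts tested were not counted either (background 0.191% lower and 0.5% higher).

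The counted region was exon 3 of ACSL5, whose sequence is printed above, at chr10:114125946-114126196 in hg18. For MIP101 its coverage was worth 63.3 reads, spread over 92.8% of its 251 bases, and for MIP/5FU it was 0. At the ratio of the gene as a whole, 22.1 reads would have fallen on it in MIP/5FU. With a floor of 3 reads in place of 0, the ratio of the exon between the lines was 7.36-fold below that of the gene. That value leaves out the counting error of the MIP101 reads, and the nearer limit of the 0.001 interval lay at 2.74-fold. This exon region was among the values that drew attention to the family.

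Reads across the junction from exon 3 to exon 4, counted apart from the exon region, followed it. MIP101 gave the junction 21 reads and MIP/5FU 0, where the gene ratio gives 7.32. Its index interval reached past 0 (upper limit 0.32), so it was not counted by that rule. Set over itself plus the exon 4 to 5 junction (53 and 23 reads), it took 28.4% of 74 reads in MIP101 (18.5% to 40.1%). In MIP/5FU it took 0 of 23, which allows a share of up to 13.0% by a floor of 3 reads (Clopper-Pearson upper limit 14.8%).

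No other annotated first exon of ACSL5 was well covered in either line. Exon 1 stood at 0.459 per base in MIP101 and 1.57 in MIP/5FU, and exon 2 at 0.382 and 0.0843, each against 70.8 and 51.5 in exon 4. The junctions from exon 1 to 4 and from exon 2 to 4 had no read in either library. All 21 reads into exon 4 from exons 1, 2 and 3 in MIP101 thus came from exon 3, and MIP/5FU had none to divide. The boundary upstream of exon 4, where a read would run from the intron into the exon, had 5 reads in each library. Exon 3 was also low within MIP101, at 15.5% of the level of exon 4. Which 5′ end the ACSL5 RNA of MIP/5FU carries was not detectable at this depth.

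Beyond exon 3, ACSL5 was even. The other 20 exon regions tested had log2 ratios from -0.91 to 0.06, and the intervals of all 20 included the ratio of the gene. Reads on the 19 canonical junctions from exon 4 on numbered 1013 and 361, a log2 ratio of -0.55 (-0.73 to -0.38) scaled by junction totals and -0.62 (-0.80 to -0.45) as a share of gene reads. The level per base of its 19 fully coding regions had a median of 80.4 in MIP101 and 51.8 in MIP/5FU, and exon 10 alone was higher in MIP/5FU. The junction that skips exon 7, which marks a separate annotated transcript of ACSL5, had no read in either library.

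ACSL3 was even as well, with exon region ratios from -0.47 to -0.03 over 17 regions, none above 0. Its lowest region was exon 3, a 107-base exon of the 5′ untranslated region that 1 of its 2 annotated transcripts leaves out, at 155.9 per base in MIP101 and 110.7 in MIP/5FU. The junction from exon 2 to 4, which skips it, had 89 and 56 reads. The inclusion junctions had 129 and 41 reads (exon 2 to 3) and 103 and 46 reads (exon 3 to 4). The junction from exon 1 to 4, which also skips exon 3, had 19 and 8 reads. That from exon 1 to 3 had 10 and 7 reads, and both are left out of the shares below. Skipping over skipping plus mean inclusion was 43.4% in MIP101 (36.5% to 50.5%) and 56.3% in MIP/5FU (46.0% to 66.2%), with approximate limits because each total holds a mean of junction counts. These intervals overlap, which does not show that the shares are equal, and the exon was picked after its values were seen. With exon 2 to 3 reads alone for inclusion, skipping was 40.8% (34.2% to 47.7%) in MIP101 and 57.7% (47.3% to 67.7%) in MIP/5FU. With exon 3 to 4 reads alone it was 46.4% (39.1% to 53.7%) and 54.9% (44.7% to 64.8%). Both kinds of junction were read in both lines.

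ACSL1 had 1 region near the limit. Its noncoding exon 1 stood at 10.7 per base in MIP101 and 19.5 in MIP/5FU, with 35.9 and 36.6 read equivalents. Its index of 0.96 (-0.20 to 2.13) was just under the limit of 1, and its interval included 0. The other 20 regions of ACSL1 had indices under 0.5 in size. Its 20 canonical junctions were all read, 2169 and 1059 times in sum, a log2 ratio of -0.10 (-0.20 to 0.01) scaled by junction totals and -0.17 (-0.27 to -0.06) as a share of gene reads.

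**Figure D3:**
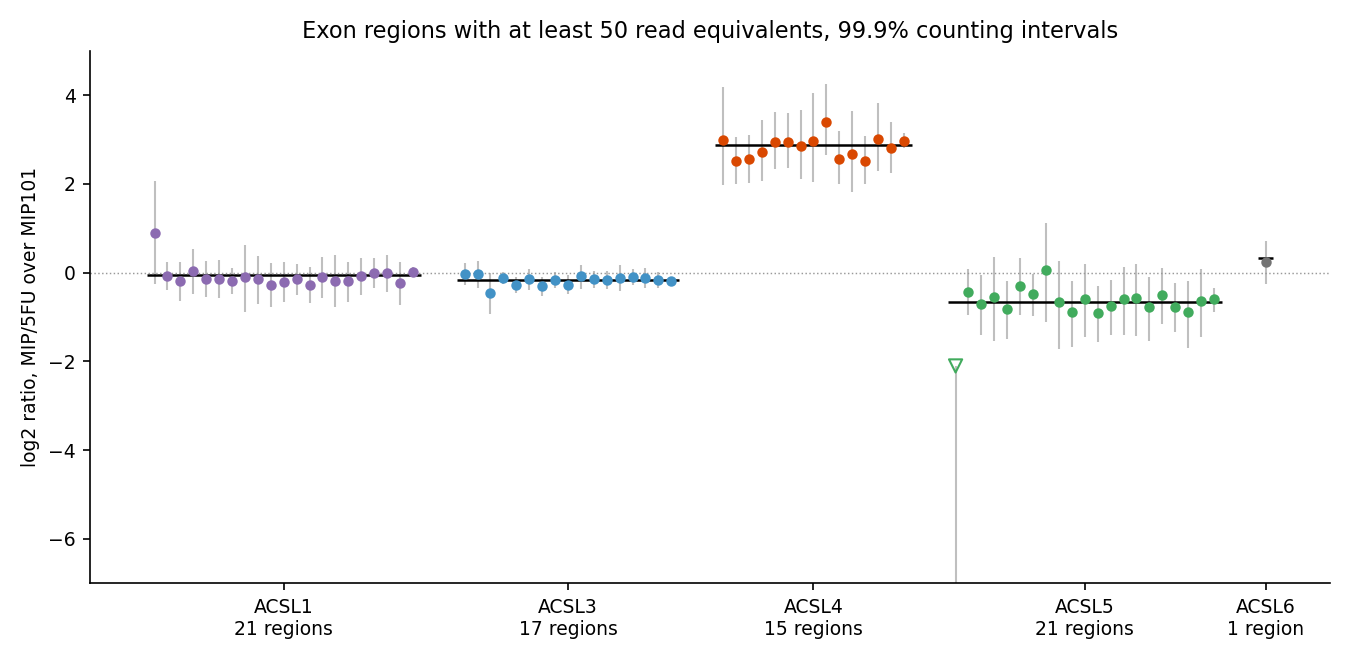
Log2 ratio of reads, MIP/5FU over MIP101, for each exon region with at least 50 read equivalents, in transcript order within each gene. Vertical lines are counting intervals at an error rate of 0.001, black lines the ratio of the whole gene, and the open triangle the upper limit for exon 3 of ACSL5, which had no coverage in MIP/5FU. All 15 regions of ACSL4 lie between 2.51 and 3.39.

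Sequence shared between genes could move reads from one to another, so 36-base words, the length of the shorter reads, were compared among GENCODE 29 transcripts on both strands. No such word of a member occurred in another member. Words also found in other genes made up 0.513% for ACSL1, 1.11% for ACSL3, 0.699% for ACSL4, 6.25% for ACSL5 and 19.0% for ACSL6. Those of ACSL6 were spread over 4099 other genes. For ACSL4 all 46 shared words were shared with KCNE5. In hg18 no other gene of the files overlapped a member. The libraries do not mark strand, so antisense reads cannot be told from sense reads.

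The genes beside ACSL4 on the X chromosome did not share its ratio. NXT2, a nuclear transport factor, is the nearest tested gene on the lower side and had 4875 and 1665 reads, a log2 ratio of -0.68. TMEM164, the nearest on the higher side, had 8420 and 3799 reads and a log2 ratio of -0.28. Over the 5 genes on either side the median was 0.02, in a range from -0.68 to 0.41. None of the 10 was counted.

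ACSL5 lay between GPAM, which makes lysophosphatidic acid from acyl-CoA in mitochondria, at -0.17 and ZDHHC6, a palmitoyltransferase, at 0.12. The 10 genes around it had a median of 0.06 and none was counted. Around ACSL1, MLF1IP was at 0.29 and SLC25A4, an ADP/ATP carrier of mitochondria, at 0.15, with a median of 0.08 over 10 genes. Around ACSL3, FARSLB was at 0.04 and KCNE4, a potassium channel subunit, at 0.47. The median there was 0.03, and the ephrin receptor EPHA4, named because it was the 1 neighbour counted, was higher with 243 and 412 reads. ACSL6 lay between FNIP1 at 0.29 and P4HA2, a collagen prolyl hydroxylase, at 0.87, and 9 of its 10 neighbours were above 0, with a median of 0.33.

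**Figure D4:**
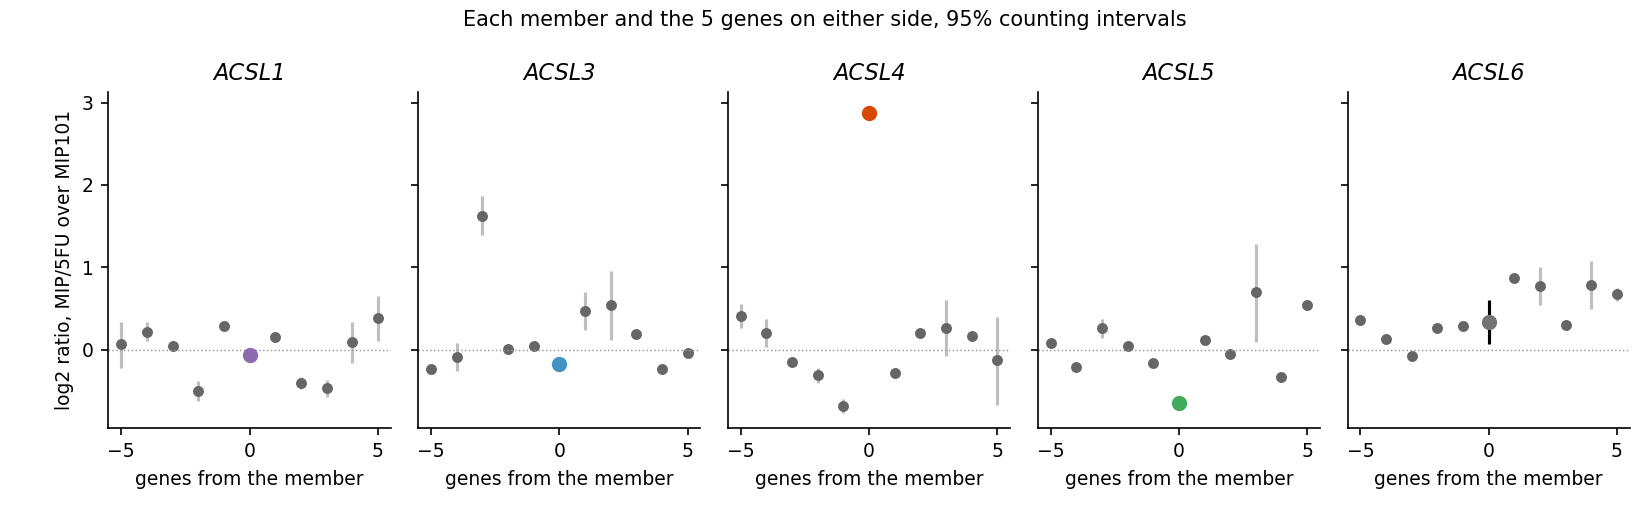
Log2 ratio of each member (coloured, at 0) and of the 5 tested protein-coding genes on either side of it in chromosome order, with 95% counting intervals. ACSL4 stands at 2.87 among neighbours between -0.68 and 0.41.

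Genes that work beside the family in fatty acid and acyl-CoA metabolism were followed through 10 lists with 188 genes in all. Of the 159 with at least 100 reads, 4 were counted higher and 9 lower, where 2.53% and 3.09% of all genes tested were. These shares are the background for the counts of each list below. The median log2 ratio was -0.02 against 0.03 over all genes tested. No gene of these lists reached the ratio of ACSL4. The highest, 1.70, was that of BAAT, which joins bile acids to amino acids, with 42 and 75 reads.

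Other acyl-CoA synthetases were 12 tested genes, 0 counted higher and 1 lower. ACSM3, a medium-chain synthetase, was the one, with 1440 and 289 reads and a log2 ratio of -1.45. ACSF2 was at -0.66, the acetyl-CoA synthetase ACSS2 at -0.45, and ACSBG2 at 0.37 on 130 and 92 reads. The list's median was -0.13. Acyl-CoA thioesterases and binding proteins had 1 of 14 higher, BAAT, and 1 lower, the acyl-CoA-binding protein ACBD4, with 2192 and 374 reads and a log2 ratio of -1.68. The thioesterases ACOT1 and ACOT11 were at -0.46 and 0.41. Of 8 fatty acid uptake and binding genes 4 were tested and none was counted: FABP5, with 13396 and 8311 reads, was at 0.18, FABP2 at 0.12, FABP3 at 0.09 and FABP7 at 0.06.

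Where acyl-CoA is oxidised, 1 of 24 tested genes was counted lower and 0 higher. ACOX2, a peroxisomal oxidase of branched acyl-CoA, had 3622 and 558 reads and a log2 ratio of -1.83. ECI1 and ECI2, isomerases of unsaturated enoyl-CoA, were at 0.96 and -0.83, and the carnitine carrier SLC25A20 at -0.79. The list median was 0.09. In glycerolipid synthesis and lipid droplets 25 genes were tested. AGPAT4, an acyltransferase that makes phosphatidic acid, was counted lower with 803 and 70 reads and a log2 ratio of -2.64. The droplet coat gene PLIN4 was counted higher at 1.09, while PLIN2 was at 0.89 and the triglyceride synthase DGAT2 at -0.86.

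Phospholipid remodelling, which takes up the acyl-CoA that ACSL4 makes, had 0 of 15 tested genes counted in either direction and a median of -0.20. MBOAT2 and MBOAT1, lysophospholipid acyltransferases, were at -0.80 and -0.72. PLA2G4A, the phospholipase that frees arachidonate, was at -0.70 and LPCAT4 at 0.60. Desaturation and elongation, the steps that make polyunsaturated fatty acids, had 1 of 14 higher and 1 lower. FADS2, the delta-6 desaturase, was counted higher with 3931 and 6026 reads and a log2 ratio of 1.48. HSD17B12, a reductase of the elongation cycle, was counted lower with 22397 and 5007 reads and -1.29. SCD, which makes monounsaturated fatty acids, had 450570 and 125839 reads and -0.97. It was just inside 2-fold and was counted lower under either other scaling, and the elongase ELOVL7 was at 0.88.

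Oxygenation of arachidonate, the fatty acid that ACSL4 prefers, had 1 of 14 tested genes counted higher and 3 lower. Reads were low throughout the counted genes. The cyclooxygenases PTGS2 (418 and 77 reads) and PTGS1 (92 and 21 reads) were counted lower at -1.57 and -1.24. The lipoxygenase ALOX12B (126 and 13 reads) was counted lower at -2.36, and thromboxane synthase TBXAS1 (65 and 85 reads) higher at 1.25. The list median was -0.02.

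Genes of lipid peroxidation and ferroptosis numbered 24 tested, 0 higher and 1 lower, with a median of 0.00. CYB5R1, a reductase that can feed peroxidation, was counted lower on 145 and 28 reads at -1.48. The cystine carrier SLC7A11 had 8557 and 8899 reads and a log2 ratio of 0.92. Its partner SLC3A2 was at 0.66 and the transferrin receptor TFRC, which brings in iron, at 0.87. These 3 lay below 2-fold. Outside the naming rule, and chosen after the values were seen because both act next to ACSL4, LPCAT3 was at 0.03 (28478 and 15887 reads) and GPX4 at 0.05 (29798 and 16881 reads). Transcription factors and regulators of lipid genes had 0 of 16 counted and a median of -0.06. RXRB was at -0.69, SREBF1 at -0.41, INSIG1 at -0.40 and NR1H3 at -0.37.

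**Figure D5:**
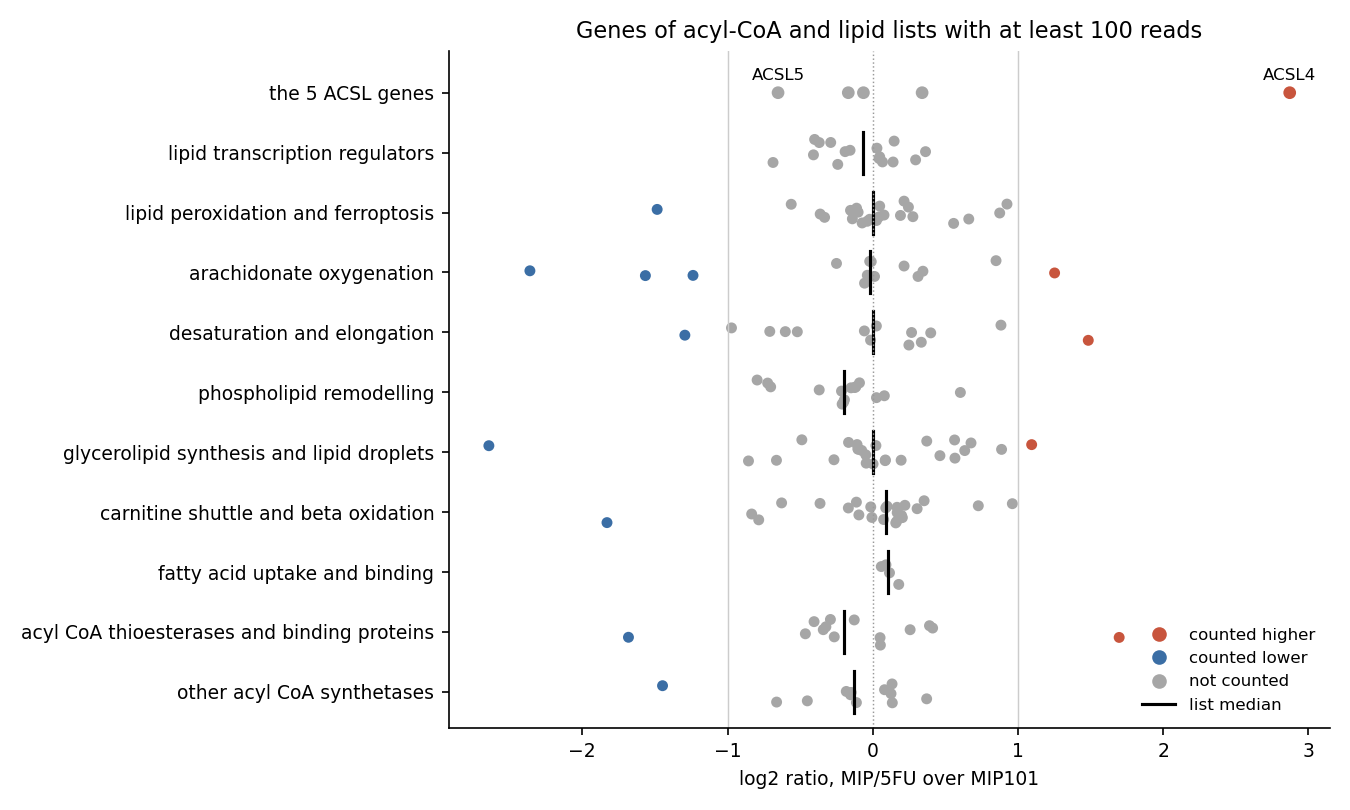
Log2 ratio, MIP/5FU over MIP101, of genes with at least 100 reads in 10 lists of fatty acid and acyl-CoA metabolism and in the 5 ACSL genes. Red and blue points were counted higher and lower, grey points were not, black bars are list medians and vertical lines mark 2-fold. ACSL4 at 2.87 lies beyond every list gene, the highest of which is at 1.70.

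Markers of tissue of origin bear on which cells gave these RNAs. All 12 colon epithelium markers had at least 100 reads. Of these 7 were above 0 and 5 below, 9 were not counted, and their median log2 ratio was 0.09. KRT20 was counted higher at 2.76, and LGALS4 and the microvillus protein VIL1 were counted lower at -1.31 and -1.23, while the cadherin CDH17 was at -0.65. Differentiation markers of the same epithelium thus went both ways beside ACSL4 and ACSL5, and their part in the ratios of the family was not tested. Of 12 hepatocyte markers 5 had no read in either library, and their sum was 10.0 RPM in MIP101 and 7.75 in MIP/5FU. SERPINA1 was at -0.78, ALB at 0.87 on 68 reads in each library, CYP3A4 at 0.36 and CYP2E1 at -0.06. Of 10 fibroblast and endothelial markers 4 had no read, and the sum was 21.1 and 17.0 RPM. COL3A1 was counted lower at -4.56, PDGFRB was at 0.40 and COL1A1 at -0.08. The 10 blood markers summed to 1.92 and 3.02 RPM, with CD14 at 0.94 and LYZ at 0.49, and 1 had no read.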

How the data were processed

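Polyadenylated RNA of MIP101 and MIP/5FU was sequenced as 1 paired-end library each, from cDNA primed with random hexamers and without strand marking, per the labels' protocols. Reads were 42 bases (80%) and 36 bases long. The authors deposited tables of genes, exon regions, junctions, boundaries and transcripts on hg18 and Ensembl 53. The aligner and its filters are not given in the sources used here. The deposited gene, junction and boundary tables hold read counts. The exon region and transcript tables hold no counts, so the authors' cumulative coverage, a signal per feature, was divided by the mean bases per read (40.4 in MIP101, 39.8 in MIP/5FU). Levels are the authors' normalized coverage signal per base. The percent of bases covered was also deposited by the authors.

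Ratios were log2 of shares of gene reads, with 0.5 reads added, and exact conditional binomial intervals. Sums of canonical junction reads were instead scaled by their totals over all genes, 23851775 and 12454561. Depth was 200141071 and 109693681 gene reads. Intervals cover counting error only and treat reads as independent. Reads copied by PCR are not independent molecules, so the intervals may be too narrow even for counting error. With 1 library per line no p-value was computed. The functions were tested on simulated data with known changes. Alternatives were median-ratio and edgeR 4.0.16 TMM scaling (normalization factors only), junction reads, coverage, and other minimums, folds and intervals. Python 3.11.15 with pandas 2.3.3 and scipy 1.17.1 was used.

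Promoter windows came from RefSeq (GRCh38.p14), 250 bases before to 50 after a start, of which only bases upstream of annotated starts were kept. All 188 list genes were matched to the files by identifier or symbol, some under older symbols. The members, lists and tests were chosen with earlier results of these data known. Named were the members, their counted features, the first exons of ACSL4 and ACSL5, up to 4 tested genes of each list with the largest ratios, every counted gene of a list with 5 or fewer, the nearest genes in ratio to ACSL4 and the nearest tested neighbours of each member. Other features and genes named in the report were chosen after their values were seen.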

Additional observations from a re-analysis of the deposited data

How the results depend on the processing

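No paired analysis was possible because each line gave 1 library, and for the same reason no replicate could be left out. Of 243 alternatives to 62 results 202 stayed close to the value reported, 41 moved and 0 reversed. Only the gene ratio of ACSL4, the 1 counted member, could be labelled reversed, so that 0 says nothing of the other results. The median beside ACSL5 changed sign, from 0.06 to -0.03 with 10 genes on either side, and was not labelled reversed. Close meant inside the 95% counting interval for a ratio or share. For a count it meant within 1.5 times, and for a median log2 ratio within 0.1. Wide intervals and small counts therefore decide some of the labels, and some alternatives could not move. The 1.5-fold limit does not enter a list median, and the ACSL5 exon 3 share already rested on Ensembl junctions only. ACSL1 went to -0.11 under TMM scaling, and ACSL3 to -0.20 under median-ratio scaling and -0.22 under TMM scaling. Canonical junction reads, which change both the reads and the total they are scaled by, gave -0.21 for ACSL3, 3.03 for ACSL4 and 0.94 for ACSL6, the last on 3 and 3 reads (-1.96 to 3.84). The same reads as shares of gene reads, tried after seeing the data, gave -0.17 for ACSL1, -0.28 for ACSL3, 2.96 for ACSL4 and 0.87 for ACSL6 (-2.03 to 3.77). At 1.5-fold 1 member was counted lower (ACSL5), and 15 pathway genes were counted higher and 22 lower. With at least 500 reads the pathway counts were 2 and 5. The ACSL4 share of the summed level was 2.31% in MIP101 and 16.4% in MIP/5FU by the median over exon regions. With at least 100 read equivalents 0 exon regions were counted lower, since exon 3 of ACSL5 was not tested. With a 95% interval 1 junction was counted higher (exon 10 to 11 of ACSL4) and 1 lower (exon 3 to 4 of ACSL5). On Ensembl junctions alone the exon 2 to 4c share of ACSL4 was 100% in MIP101 and 80% in MIP/5FU. These shares rest on 2 and 8 reads, beside 0 and 2 of exon 2 to 4d, too few to show a shift. The median beside ACSL6 was 0.22 with 10 genes on either side. For moves without a stated reason the cause was not tested. The ACSL5 first-exon share had no value in MIP/5FU, which had 0 such reads, and no coverage alternative was computed for ACSL4 first exons.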
